A study of Mus musculus with 40 samples.

Results

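The genes described here encode the proteins of the cytosolic ribosome (Rpl and Rps genes) and of the mitochondrial ribosome (Mrpl and Mrps genes) in mouse oocytes at the germinal-vesicle stage, when growth is complete and meiosis has not yet resumed. A transcript locus was taken as a member when the deposited annotation gave it a symbol of this kind, the locus overlapped that gene and lay on its strand, and the gene was neither an Rps6k kinase nor marked as a pseudogene. The rule found 124 loci among the 38540 of the RNA table. Of these 71 were cytosolic (70 symbols, 40 named for the large and 30 for the small subunit). The other 53 were mitochondrial (51 symbols, 30 named for the large and 21 for the small subunit). Another 47 loci with a matching symbol lay beside the gene or on its other strand and were left out. The rule uses name and place only and no measured value, but it was set with earlier results of these data known.

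The study compared oocytes without the H3K9 methyltransferase G9a (conditional knockout, G9a cKO) and oocytes without G9a and its partner Glp (conditional double knockout, cDKO) with control oocytes. RNA was measured in 11 libraries: 3 controls and 3 G9a cKO libraries with the title prefix GKAO, and 3 controls and 2 cDKO libraries with the prefix GKAQ. The mice were 22 to 25 days old and each sample pooled 100 to 200 oocytes dissected by hand. The labels give the genotype of the RNA controls only as control and, in their titles, as WT. They name no strain and no Cre driver, and do not say what the prefixes or the numbers behind them stand for. Each mutant was therefore compared with the controls of its own prefix, GKAO for G9a cKO and GKAQ for cDKO. The labels do not say that libraries came from separate animals, so the p-values below measure only the spread between these samples, which may be technical.

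The cytosolic ribosome translates nuclear mRNAs and is built in the nucleolus from ribosomal RNA and proteins that are needed in near equal amounts. Many of its protein mRNAs begin with a C followed by a run of pyrimidines, the 5′ terminal oligopyrimidine (TOP) tract, through which mTOR signalling and LARP1 control their translation and storage. The mitochondrial ribosome translates only the few mRNAs of the mitochondrial genome, although all of its proteins are encoded in the nucleus. Growing oocytes accumulate ribosomes, mitochondria and stored mRNAs that the embryo draws on until its own genome becomes active. The mark that G9a and Glp write, H3K9me2 (2 methyl groups on lysine 9 of histone H3), is found over silent chromatin.

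Pyrimidine runs like a TOP tract were more frequent in the cytosolic than in the mitochondrial set. RefSeq promoters (GRCm38.p6, 250 bases before to 50 bases after the annotated start) were found for 94 of the 121 member symbols, 50 cytosolic and 44 mitochondrial. A C at the start or within 5 bases of it, followed by at least 4 bases that are each C or T on the coding strand, was present in 22 of 50 cytosolic genes (44.0%) and 10 of 44 mitochondrial genes (22.7%), against 21.2% of the 27025 genes of the promoter table. Annotated starts can lie some bases off the start used in oocytes, and a run of at least 8 bases that are each C or T anywhere in the 50 bases after the start, a search chosen after the data were seen, was present in 62.0%, 11.4% and 19.9%. The 2 searches overlap, since a run at the start meets both. The following windows show runs of the second search, in capitals, for cytosolic genes whose RNA is described below. They are on the coding strand from 5′ to 3′. The run starts 2 bases after the annotated start in Rpl13a. In the other genes it starts 21 bases (Rpl26) to 40 bases (Rpl10) after it. Whether these runs stand at the start of the mRNA in oocytes, as a TOP tract does, was not tested.
Rpl37, chr15:5116631-5116660, plus strand: ggcgggggtgCTTTCTCTTCCggtctcttt
Rpl26, chr11:68901579-68901608, plus strand: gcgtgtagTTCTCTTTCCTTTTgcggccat
Rps23, chr13:90923142-90923171, plus strand: tgggtccttcctgcaCCTCCTCTCTCTTTC
Rpl13a, chr7:45128722-45128751, minus strand: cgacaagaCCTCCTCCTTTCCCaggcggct
Rpl31, chr1:39367871-39367900, plus strand: cggctacgcgaCTTTCCCTCCCacaaaccc
Rpl39, chrX:37085173-37085202, minus strand: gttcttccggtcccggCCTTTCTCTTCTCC
Rpl10, chrX:74270836-74270865, plus strand: cgtgagcaggcgtgggagcgTCTCTTTTCC
Rps24, chr14:24490698-24490727, plus strand: ttggtcggcagtgagcggTCCTCTTTTCCT

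Both sets shared another motif. CCGGAAG on either strand, the core bound by ETS factors such as GABPA, was found in 20 of 50 cytosolic genes (40%) and 15 of 44 mitochondrial genes (34.1%), against 9.93% of all genes in the table. AAGATGGC on either strand, the core of the YY1 motif, was found in 6.0%, 13.6% and 3.19%, and TATAAA on the coding strand 35 to 20 bases before the start in 2.0% and 0% against 2.22%. These matches describe letters, and binding was not measured. The ETS core is in capitals in the windows below, for members called in a comparison that follows (CTTCCGG is the same core read from the other strand).
Mrpl52, chr14:54426850-54426879, plus strand: tcaagatgtcggCTTCCGGttttcccggca
Mrpl48, chr7:100583147-100583176, minus strand: gggttttaaaaaCTTCCGGaaccaagatgc
Mrpl18, chr17:12916312-12916341, minus strand: actgaaaacgCCGGAAGtagggggctgcgg
Mrps22, chr9:98601673-98601702, minus strand: aaacctctcgagCCGGAAGttgctctatcg
Rpl37, chr15:5116578-5116607, plus strand: caccaagacccgCCGGAAGtagtttcctgg
Rpl26, chr11:68901558-68901587, plus strand: caacttacagaaCCGGAAGtcgcgtgtagt

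**Figure D1:**
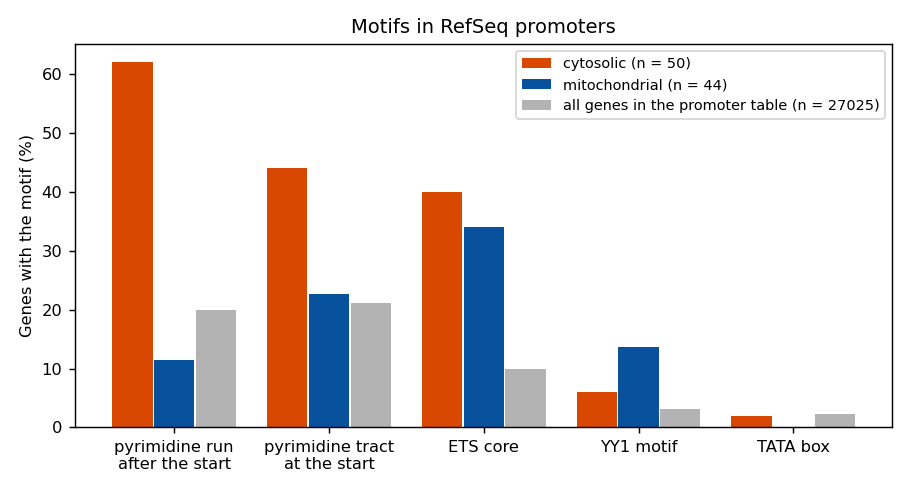
Share of genes (vertical axis, percent) whose RefSeq promoter holds each motif (horizontal axis), for 50 cytosolic genes, 44 mitochondrial genes and the 27025 genes of the promoter table. The pyrimidine run after the start was found in 62.0% of cytosolic and 11.4% of mitochondrial genes, and the ETS core in 40% and 34.1% against 9.93% of all genes.

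The RNA libraries held 1458868 to 2399680 reads. Levels are given per 1000000 reads of the library (RPM). Loci whose 11 libraries averaged 10 RPM or more were taken as detected, which was true of 9091 loci (23.6%). Ehmt1, the gene of Glp, had 17.7 and 21.3 RPM in cDKO and 54.5 to 90.5 RPM in the other 9 libraries. Ehmt2, the gene of G9a, had 2.09, 6.01 and 0.942 RPM in G9a cKO against 5.27 to 8.23 RPM in GKAO controls, and 2.85 and 2.96 RPM in cDKO against 5.03 to 12.5 RPM in GKAQ controls. The Ehmt2 level of G9a cKO replicate 2, 6.01 RPM, lay within the range of its controls; the labels do not give the deleted part of the gene, so reads over the whole locus check the genotype only in part. The 13 matched oocyte markers summed to 19100 to 20000 RPM in GKAO controls, 20600 to 21500 in G9a cKO, 17400 to 18200 in GKAQ controls and 18300 to 18500 in cDKO, so that both mutants lay above their own controls. With limma 4 of the 13 were called in G9a cKO (3 higher, 1 lower) and 8 in cDKO (5 higher, 3 lower), none of them with its own spread. The 20 matched granulosa cell markers, none at 0 and 3 with at most 3 reads in every library, summed to 273 to 304 RPM in GKAO controls, 216 to 261 in G9a cKO, 244 to 289 in GKAQ controls and 246 to 262 in cDKO; G9a cKO lay below its controls and cDKO within the range of its own. Of the 5 matched blood markers 3 had no read, and the sum was 2.85 to 9.60 RPM. The part of these marker levels in the results below was not tested. In pooled oocytes a lower level cannot be told apart from fewer cells that express the gene.

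Ribosomal protein genes without a locus that met the rule were not analysed here. Of 71 cytosolic loci 66 were detected, and Rpl9, Rpl10l, Rpl21, Rpl22l1 and Rps28 were below the limit. Of 53 mitochondrial loci 44 were detected. Rpl24, Mrpl33 and Mrps24 each had a second locus that met the rule, and sums, medians and counts hold both. The second locus of Rpl24 (chromosome 16, 55972874 to 56008913) had a mean of 60.5 RPM, against 31.5 RPM for the other. Whether the reads of these second loci come from mRNA of the gene was not tested. No member was without reads, and each had more than 3 reads in at least 1 library. Of the cytosolic loci 15 and of the mitochondrial loci 15 share positions with a locus of the opposite strand; the sources used here do not say whether the counting used strand, so these levels are uncertain. Lengths of the loci's exons were not used here, so levels are compared between libraries and not between genes. Among detected cytosolic members the SD of log2 RPM over the 11 libraries ran from 0.18 for Rpl36a to 1.12 for Rpl37, and among detected mitochondrial members the lowest was 0.15, for Mrpl24.

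The summed RNA of the 71 cytosolic loci was 4286, 4531 and 5041 RPM in GKAO controls and 3923, 4386 and 4726 RPM in G9a cKO. These groups overlapped. It was 3606, 3940 and 3785 RPM in GKAQ controls and 4634 and 4111 RPM in cDKO, so that both cDKO libraries lay above their 3 controls but within the range of the GKAO libraries. Rpl37 alone accounted for part of the gap between the control groups: without it the sums were 3841, 3997 and 4432 RPM in GKAO controls and 3513, 3834 and 3678 RPM in GKAQ controls. The 53 mitochondrial loci summed to 2085, 2120 and 2310 RPM in GKAO controls, 1848, 2055 and 2087 in G9a cKO, 2002, 1977 and 2053 in GKAQ controls and 2217 and 2196 in cDKO. Here too both cDKO libraries were above their controls, while G9a cKO overlapped its controls in 1 library only, at 2087 RPM.

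**Figure D2:**
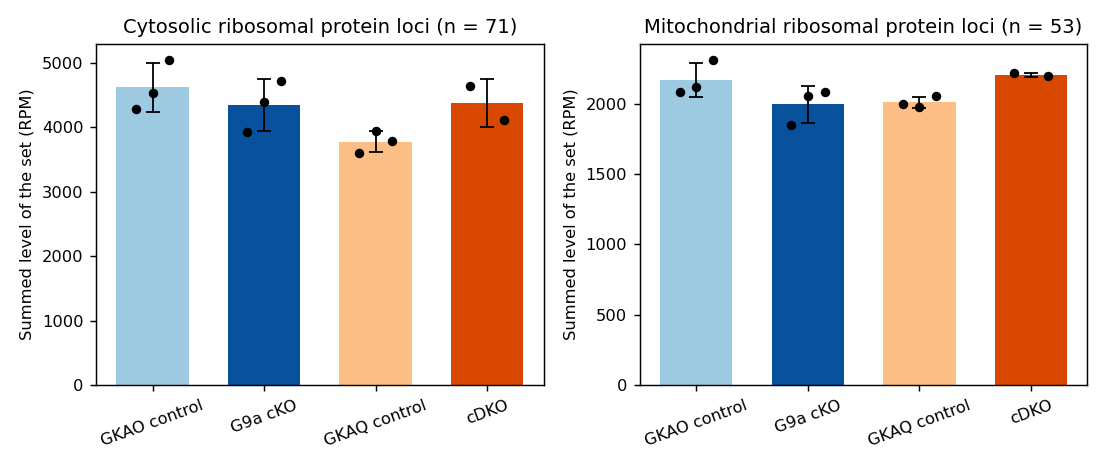
Summed RNA level (RPM, from 0) of the 71 cytosolic loci (left) and the 53 mitochondrial loci (right) in each group. Points are libraries, bars are means and error bars are SD (n = 3, and n = 2 for cDKO). The lowest cytosolic sums are those of GKAQ controls, at 3606 to 3940 RPM.

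Differences were tested with limma on the log2 RPM values of all 38540 loci, and a locus was called at an adjusted p (Benjamini-Hochberg) below 0.05. For all 124 members the moderated spread was the value of the trend over loci of like level, so that the standard errors (SE) below are those of a typical locus of that level rather than of the gene itself. Values in each library are therefore given first, and for the members described singly an adjusted p from a fit with no trend, in which each gene's own spread counts ("own spread" below), is given beside the call. Over all loci that fit called no member in G9a cKO, 3 cytosolic and 1 mitochondrial in cDKO, and 4 cytosolic and 0 mitochondrial between controls.

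In G9a cKO 2 of 71 cytosolic loci were called (2.82%), 1 higher and 1 lower, against 1.79% of all loci (1.05% higher, 0.737% lower) and 5.22% of detected loci (2.84% higher, 2.39% lower), and 1 of 53 mitochondrial loci (1.89%), which was higher. Without adjustment 14 cytosolic and 9 mitochondrial loci had p below 0.05. The share of all loci below that unadjusted p was not taken, here or below, so such counts cannot be read as an excess. The members called were Rpl10l, Rpl26 and Mrps2. The count depends on the model. With the title number that GKAO libraries share as a term, 6 cytosolic (1 higher, 5 lower) and 1 mitochondrial were called. Against all 6 controls 6 and 5 were called, and with no trend or with log2(RPM + 1) none. The share of all loci called in such other settings is not given, here or below. These counts therefore cannot be read as a result about the members.

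Rpl10l is an autosomal retrogene copy of the X-linked gene Rpl10 and is best known from the male germ line. Its locus (ENSMUSG00000060499, chromosome 12, 66282407 to 66284440) had 2, 5 and 1 reads in GKAO controls and 19, 12 and 16 reads in G9a cKO, or 1.37, 2.62 and 0.586 RPM against 7.93, 6.56 and 7.53 RPM. The groups did not overlap, although the counts are small. Its log2 fold change stood at 2.51 (SE 0.61, adjusted p = 0.00443 with limma), and adjusted p was 0.14 with the gene's own spread. Mrps2, a small-subunit protein of the mitochondrial ribosome (ENSMUSG00000035772, chromosome 2, 28468052 to 28471178), had 24.7, 22.0 and 27 RPM in controls and 39.7, 48.1 and 55.6 RPM in G9a cKO, with no overlap. It rose by 0.95 on the log2 scale (SE 0.23, adjusted p = 0.00398 with limma), and adjusted p was 0.0569 with its own spread.

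Rpl26, a large-subunit protein that lies near the exit of the peptide tunnel (ENSMUSG00000060938, chromosome 11, 68901446 to 68904534), was the member called lower. It had 151, 171 and 174 RPM in controls and 113, 95.6 and 150 RPM in G9a cKO, so that the highest mutant library lay just below the lowest control. It fell by 0.49 on the log2 scale (SE 0.12, adjusted p = 0.00679 with limma; 0.279 with its own spread). Without G9a cKO replicate 2, the library with the Ehmt2 level of a control, Rpl26 changed by −0.34 and was no longer called (adjusted p = 0.128 with limma). Rpl10l and Mrps2 were still called without that library, at 2.59 and 0.94 on the log2 scale (adjusted p = 0.0277 and 0.0369 with limma). However, Rpl10l lost its call without GKAO control replicate 3, and Mrps2 lost its call without G9a cKO replicate 3.

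The sets as a whole lay slightly below their controls in G9a cKO. The median log2 fold change was −0.086 over the 66 detected cytosolic loci, with 39 below 0, and −0.186 over the 44 detected mitochondrial loci, with 35 below 0. Over all detected loci the median was 0.008. The GKAO titles carry 2 numbers. Within the libraries of the lower number (1 mutant, 2 controls) the medians were −0.1 cytosolic and −0.206 mitochondrial, and within those of the higher number (2 mutants, 1 control) −0.171 and −0.118. The direction was the same within both numbers for both sets. However, the 1 control of the higher number is GKAO control replicate 3, which had the highest sum of each set, 5041 and 2310 RPM. No test was made of these medians. Without GKAO control replicate 3 the cytosolic median was 0.015 and the mitochondrial median −0.061, and no cytosolic member was called.

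In cDKO more members were called, most of them higher. Of 71 cytosolic loci 11 were called (15.5%), 10 higher and 1 lower, against 6.34% of all loci (4.32% higher, 2.02% lower). Of the 66 detected cytosolic loci 10 were called (15.2%) against 15.8% of all detected loci, a share near the background. By direction, 9 of the 66 were higher (13.6%) against 8.63% of detected loci, and 1 was lower (1.52%) against 7.18%. Of 53 mitochondrial loci 4 were called (7.55%), 3 higher and 1 lower. Of the 44 detected mitochondrial loci 4 were called (9.09%), below the 15.8% of all detected loci. By direction 6.82% of the 44 were higher and 2.27% lower, against 8.63% and 7.18% of detected loci. Without adjustment 20 cytosolic and 10 mitochondrial loci had p below 0.05, with no share of all loci to set beside them. The members called higher were Rps16, Rps20, Rps23, Rps27a, Rplp0, Rplp1, Rpl10l, Rpl13a, Rpl37 and Rpl39l of the cytosolic ribosome and Mrpl18, Mrpl52 and Mrps18c of the mitochondrial ribosome. Rpl26 and Mrpl48 were called lower.

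Among small-subunit genes, Rps23, whose protein lies at the decoding centre (ENSMUSG00000049517, chromosome 13, 90922903 to 90925014), had 15.1, 15 and 10.8 RPM in GKAQ controls and 49.5 and 30.2 RPM in cDKO. In GKAO controls it had 17.8, 20.9 and 33.4 RPM and in G9a cKO 25.9, 34.4 and 28.3 RPM. Both cDKO libraries lay above their own controls, and 1 of them lay within the range of the GKAO libraries. The GKAQ controls lay below all other libraries. Its log2 fold change stood at 1.52 (SE 0.29, adjusted p = 1.29e-05 with limma; 0.0347 with its own spread), a 2.87-fold difference, and it was called in all 14 alternative settings.

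Rps16 (ENSMUSG00000037563, chromosome 7, 28350652 to 28352696) had 5.03, 9.17 and 16.8 RPM in GKAQ controls and 40.4 and 21.3 RPM in cDKO. Its control libraries spread over more than their distance to the lower cDKO library, from 8 to 34 reads. It rose by 1.68 on the log2 scale (SE 0.35, adjusted p = 0.000109 with limma; 0.123 with its own spread), and without cDKO replicate 1 the change was 1.22 and was not called (adjusted p = 0.113). Rps20 had 25.1, 21.3 and 18.7 RPM in GKAQ controls, 37.0 and 42.7 RPM in cDKO and 41.5 to 49.4 RPM in the 6 GKAO libraries. The GKAQ controls thus stood apart from all other libraries. It rose by 0.88 in cDKO (SE 0.24, adjusted p = 0.0074 with limma; 0.028 with its own spread). A locus on the other strand that spans Rps20 had a mean of 37.9 RPM, against 37.6 RPM for Rps20, and without strand in the counting the 2 loci cannot be told apart.

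Rps27a encodes ubiquitin fused to a small-subunit protein. It had 30.2, 40.8 and 27.6 RPM in GKAQ controls, 64.3 and 43.3 RPM in cDKO, 69.2, 61.3 and 63.3 RPM in GKAO controls and 45.1, 57.9 and 37.2 RPM in G9a cKO. The GKAQ controls were low here too, and G9a cKO overlapped them. It rose by 0.70 in cDKO (SE 0.22, adjusted p = 0.0232 with limma; 0.241 with its own spread).

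The ribosomal stalk, which recruits translation factors to the large subunit, is built of Rplp0, Rplp1 and Rplp2, and the first 2 were called. Rplp0, the base of the stalk (ENSMUSG00000067274, chromosome 5, 115559467 to 115563727), had 81.7, 97.5 and 106 RPM in GKAQ controls and 262 and 212 RPM in cDKO. GKAO controls had 207, 229 and 223 RPM and G9a cKO 208, 272 and 251 RPM, so that the GKAQ controls stood apart and the other 8 libraries covered 1 range. It rose by 1.32 in cDKO (SE 0.13, adjusted p = 1.97e-22 with limma; 0.00762 with its own spread), a 2.5-fold difference. Against all 6 control libraries together it was not called (adjusted p = 0.65).

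Rplp1 had 40.2, 51.7 and 34 RPM in GKAQ controls and 112 and 48.0 RPM in cDKO, which overlap, and 105 to 134 RPM in the 6 GKAO libraries. It rose by 0.82 in cDKO (SE 0.17, adjusted p = 0.000134 with limma; 0.286 with its own spread), a call in which the 2 cDKO libraries differed more from each other than the lower one did from its controls. Rplp2, with which Rplp1 pairs on the stalk, had 326, 318 and 311 RPM in GKAQ controls and 269 and 348 RPM in cDKO and was not called (log2 fold change −0.06, SE 0.11). In the GKAO series it was lower, at 193, 167 and 245 RPM in controls and 145, 140 and 208 RPM in G9a cKO.

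Among the other large-subunit genes Rpl10l was the only member called in the same direction in both mutants besides Rpl26. It had 0, 3 and 5 reads in GKAQ controls, while cDKO had 15 and 10 reads, without overlap (log2 fold change 2.56, SE 0.68, adjusted p = 0.00525 with limma; 0.0843 with its own spread). The call was lost when GKAQ control replicate 1, the library without a read, was left out. Rpl10, the X-linked parent gene, had 34.6, 55.4 and 40.4 RPM in GKAQ controls and 35.9 and 49.8 RPM in cDKO and was not called (log2 fold change −0.01, SE 0.26). Rpl26 had 168, 182 and 180 RPM in GKAQ controls and 130 and 127 RPM in cDKO. Rpl26 fell by 0.46 (SE 0.14, adjusted p = 0.0192 with limma, 0.328 with its own spread). All 5 mutant libraries of the study lay at or below 150 RPM while all 6 controls lay at 151 RPM or above, a narrow gap. The Rpl26 call was lost in 8 of 14 alternative settings in cDKO and in 7 of 16 in G9a cKO.

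Rpl39l, another germ-line copy of an X-linked gene (Rpl39), had 6.91, 15.4 and 19.7 RPM in GKAQ controls and 29.0 and 29.6 RPM in cDKO, without overlap. The 6 GKAO libraries lay between 10.5 and 14.6 RPM. It rose by 1.20 in cDKO (SE 0.35, adjusted p = 0.0134 with limma; 0.151 with its own spread). Without GKAQ control replicate 1 the change was 0.75 and was not called (adjusted p = 0.137). Rpl39 itself had 15.7, 22.5 and 11.3 RPM in GKAQ controls and 39.3 and 18.4 RPM in cDKO, which overlap, and was not called (log2 fold change 0.76, SE 0.28).

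Rpl13a had 199, 165 and 162 RPM in GKAQ controls, 278 and 210 RPM in cDKO and 209 to 278 RPM in the GKAO libraries. It rose by 0.47 in cDKO (SE 0.12, adjusted p = 0.00214 with limma; 0.34 with its own spread). Rpl37 had 93.6, 106 and 108 RPM in GKAQ controls and 162 and 123 RPM in cDKO, and rose by 0.47 (SE 0.11, adjusted p = 0.00103 with limma; 0.361 with its own spread). All 5 GKAQ libraries were far below the GKAO libraries for this gene, which are described with the controls.

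Of the mitochondrial members, Mrpl52, a large-subunit protein (ENSMUSG00000010406, chromosome 14, 54426859 to 54429750), had 17.6, 18.8 and 13.8 RPM in GKAQ controls and 49.0 and 34.4 RPM in cDKO. GKAO controls had 32.9, 31.9 and 31.6 RPM and G9a cKO 48.0, 43.2 and 35.3 RPM. Mutants lay above their own controls without overlap in both series, and the GKAQ controls were below every other library. It rose by 1.31 in cDKO (SE 0.26, adjusted p = 3.78e-05 with limma; 0.0132 with its own spread) and was called in all 14 alternative settings. G9a cKO differed from its controls by 0.38 (SE 0.23, adjusted p = 0.242).

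Mrpl18, a large-subunit protein, had 162, 158 and 158 RPM in GKAQ controls and 218 and 244 RPM in cDKO, while the GKAO libraries lay between 157 and 194 RPM. The cDKO libraries were above all other 9. It rose by 0.53 (SE 0.13, adjusted p = 0.0012 with limma; 0.134 with its own spread). The start of the locus overlaps the start of one on the other strand with a mean of 414 RPM, against 181 RPM for Mrpl18. Mrpl48, also of the large subunit, had 137, 153 and 165 RPM in GKAQ controls and 95.1 and 113 RPM in cDKO, and 108 to 131 RPM in GKAO controls and 106, 85.8 and 98.9 RPM in G9a cKO. In both series all mutant libraries lay below their controls. It fell by 0.55 in cDKO (SE 0.15, adjusted p = 0.00801 with limma; 0.165 with its own spread), and G9a cKO differed from its controls by −0.29 (SE 0.13, adjusted p = 0.23). Mrps18c was called at the threshold (log2 fold change 0.73, SE 0.25, adjusted p = 0.0495 with limma; 0.2 with its own spread), with 27, 26.3 and 17.3 RPM in GKAQ controls and 47.3 and 30.8 RPM in cDKO, and it was lost in 10 of 14 alternative settings.

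Mrps2, called in G9a cKO, had 27, 21.3 and 23.2 RPM in GKAQ controls and 37.6 and 35.6 RPM in cDKO. The cDKO libraries lay above their controls, but the log2 fold change of 0.63 (SE 0.26) was not called (adjusted p = 0.142 with limma).

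**Figure D3:**
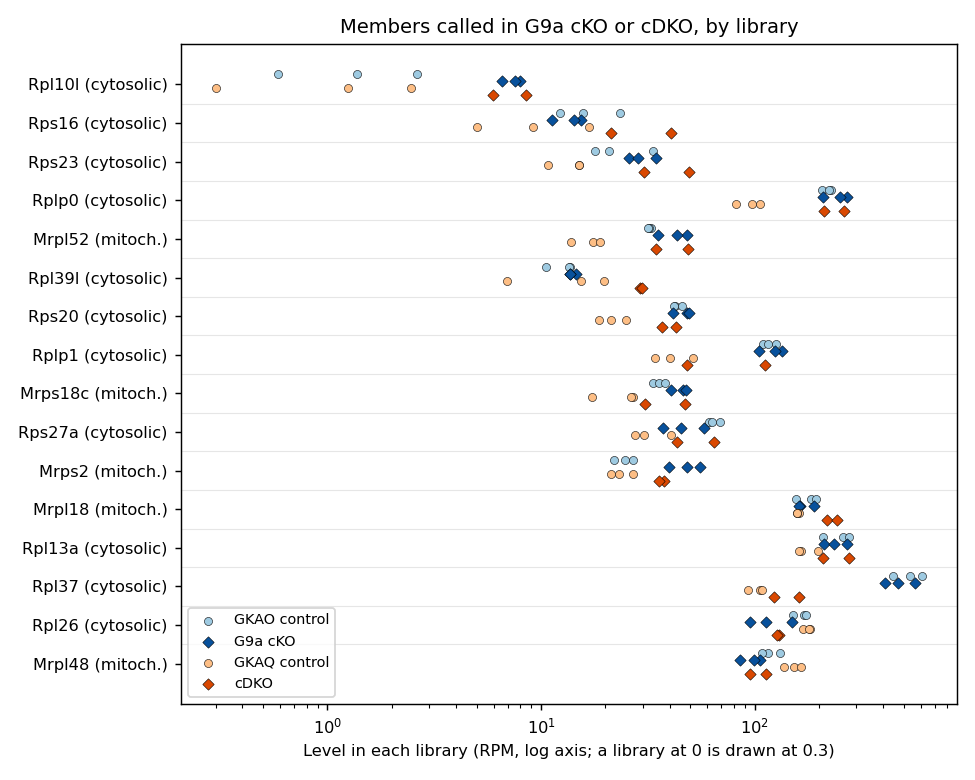
Level in each library (RPM, log axis) of the 16 members called in G9a cKO or in cDKO. For Rplp0, Rps20, Rps23 and Mrpl52 the 3 GKAQ controls lie below all other libraries, while for Mrpl18 the 2 cDKO libraries lie above all others.

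The median log2 fold change in cDKO was 0.217 over detected cytosolic loci, with 48 of 66 above 0, and 0.156 over detected mitochondrial loci, with 30 of 44 above 0. Over all detected loci it was 0.05. When each library was centred on its median detected locus, the member medians were 0.123 and 0.062. Only the title number 55 holds both a control and a cDKO library. Between this pair the median difference was 0.053 cytosolic, with 37 of 66 above 0, and 0.182 mitochondrial, with 29 of 44 above 0, against 0.035 over all detected loci of the same pair. The number of cytosolic members called was 4 without cDKO replicate 1, whose sum was the higher of the 2. Against all 6 controls pooled 5 were called.

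**Figure D4:**
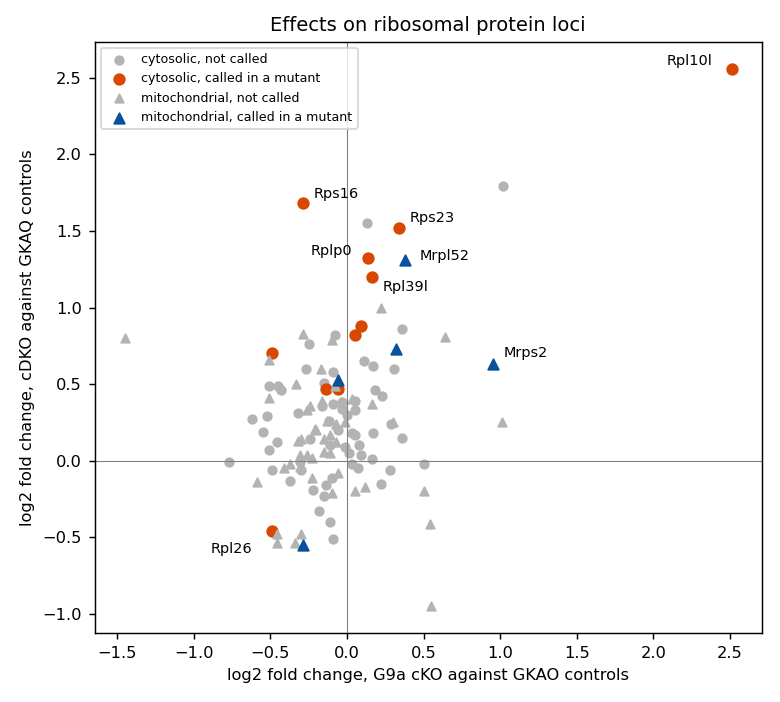
Log2 fold change of each member in G9a cKO against GKAO controls (horizontal axis) and in cDKO against GKAQ controls (vertical axis). Circles are cytosolic and triangles mitochondrial loci, coloured where called in either comparison; Rpl10l lies at 2.51 and 2.56.

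Whether the 2 mutants differed in their effect was tested directly. The change in cDKO exceeded that in G9a cKO at 4 cytosolic loci (5.63%), against 1.08% of all loci (0.685% higher, 0.397% lower) and 3.34% of detected loci (1.76% higher, 1.58% lower), and at 1 mitochondrial locus (1.89%). These were Rplp0 (difference of log2 fold changes 1.18, SE 0.17, adjusted p = 1.64e-08 with limma), Rps16 (1.97, SE 0.47, adjusted p = 0.00606), Rpl37 (0.61, SE 0.15, adjusted p = 0.00802), Rps27a (1.19, SE 0.29, adjusted p = 0.00809) and Mrpl18 (0.59, SE 0.17, adjusted p = 0.0475). None of the 5 was called when each gene's own spread was used, over all loci or over detected loci alone. Over all loci the lowest adjusted p was 0.129, for Rplp0. No member had a lower effect in cDKO that was called. Without adjustment 18 cytosolic and 8 mitochondrial loci had p below 0.05, again with no share of all loci to set beside them. The median difference over detected members was 0.317 cytosolic and 0.328 mitochondrial, against 0.028 over all detected loci. The cytosolic count was 11 without GKAQ control replicate 1, 9 without cDKO replicate 2, 2 without GKAO control replicate 3 and 1 without cDKO replicate 1, and the mitochondrial count ran from 0 to 5.

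The control groups of the 2 series also differed at ribosomal protein genes. Of 71 cytosolic loci 18 were called between GKAQ and GKAO controls (25.4%), 13 lower and 5 higher in GKAQ, against 3.87% of all loci (1.91% lower, 1.96% higher), and 18 of 66 detected loci (27.3%) against 14.8% of detected loci (7.38% lower, 7.42% higher). Of 53 mitochondrial loci 6 were called (11.3%), 5 lower and 1 higher in GKAQ. Of the 44 detected mitochondrial loci 6 were called (13.6%), a share near the 14.8% of all detected loci. By direction 11.4% of the 44 were lower and 2.27% higher. Without adjustment 35 cytosolic and 19 mitochondrial loci had p below 0.05, and here too the share of all loci was not taken. The counts were 6 and 0 with log2(RPM + 1), where cDKO had 3 and 2, and 4 and 0 with no trend, where cDKO had 3 and 1. The median log2 difference over detected members was −0.164 cytosolic and −0.202 mitochondrial, against 0.014 over all detected loci. The GKAQ controls are also the reference of the cDKO comparison, so the 2 comparisons share those 3 libraries. The prefix cannot be told apart from strain, cross or processing date, which the labels do not give.

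Rpl37, a large-subunit protein (ENSMUSG00000041841, chromosome 15, 5116061 to 5119140), had the largest difference among the members. It had 445, 534 and 609 RPM in GKAO controls and 408, 471 and 563 RPM in G9a cKO, but 93.6, 106 and 108 RPM in GKAQ controls and 162 and 123 RPM in cDKO. No GKAQ library came near a GKAO library. In reads the controls had 649, 1019 and 1040 against 149, 255 and 219. The log2 difference between controls was −2.36 (SE 0.10, adjusted p = 3.36e-123 with limma; 0.00544 with its own spread), 5.13-fold lower in GKAQ, and was called in all 14 alternative settings.

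Rplp1 was 1.5 lower in GKAQ controls on the log2 scale (SE 0.15, adjusted p = 2.92e-19 with limma; 0.0831 with its own spread), at the values given above. Rpl29, a large-subunit protein, had 17.8, 20.4 and 20.5 RPM in GKAO controls and 5.66, 10.0 and 8.87 RPM in GKAQ controls. It had 18.8, 12 and 18.8 RPM in G9a cKO and 10.2 and 14.2 RPM in cDKO. The controls did not overlap, and the log2 difference was −1.30 (SE 0.33, adjusted p = 0.00345 with limma; 0.0956 with its own spread). Other members lower in GKAQ controls included Rplp0, Rpl39, Rpl10a, Rps20, Rps27a, Rpl27, Rps7, Rpl5 and Rpl13a, and Mrpl4, Mrpl28, Mrpl52, Mrpl37 and Mrps22 of the mitochondrial ribosome. Of these, Rplp0 and Rps20 were also called with their own spread (adjusted p = 0.0289 and 0.0423).

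Rpl31, a large-subunit protein (ENSMUSG00000073702, chromosome 1, 39367823 to 39371908), differed the other way. It had 17.1, 12.6 and 17.0 RPM in GKAO controls and 14.2, 17.5 and 21.2 RPM in G9a cKO, against 42.1, 37.5 and 42.9 RPM in GKAQ controls and 46.7 and 45.6 RPM in cDKO. The 2 series did not overlap. The log2 difference between controls was 1.40 (SE 0.25, adjusted p = 2.39e-06 with limma; 0.0289 with its own spread). A locus on the other strand overlaps its end with a mean of 295 RPM, against 28.6 RPM for Rpl31. Rpl10 (log2 difference 0.79, SE 0.23, adjusted p = 0.0215), Rps24 (0.78, SE 0.18, adjusted p = 0.00059), Rplp2 (0.68, SE 0.10, adjusted p = 9.23e-09), Rpl34 (0.57, SE 0.18, adjusted p = 0.0362) and, of the mitochondrial genes, Mrps33 (0.51, SE 0.14, adjusted p = 0.00632) were also called higher in GKAQ controls with limma. None of these 5 was called with its own spread, where adjusted p was 0.271 for Rpl10, 0.0759 for Rps24, 0.259 for Rplp2, 0.188 for Rpl34 and 0.448 for Mrps33.

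**Figure D5:**
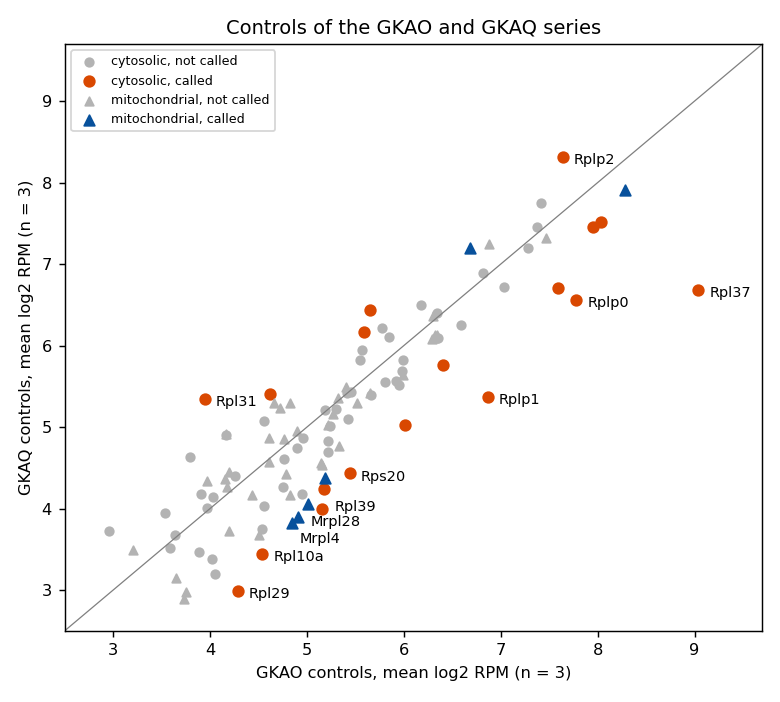
Mean log2 RPM of each detected member in GKAO controls (horizontal axis, n = 3) and GKAQ controls (vertical axis, n = 3), with the line of equal level. Rpl37 lies farthest from the line, 2.36 below it, and Rpl31 lies 1.40 above it.

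At part of the members, called between controls or not, the mutants lay on the same side as the controls of their prefix. All 6 GKAO libraries lay to one side of all 5 GKAQ libraries at 13 of 66 detected cytosolic loci (19.7%), 3 higher in GKAO and 10 higher in GKAQ, and at 4 of 44 detected mitochondrial loci (9.09%), 2 each way. Over all detected loci the shares were 5.43% and 5.62% for the 2 directions. The cytosolic loci were Rpl5, Rpl22 and Rpl37, higher in GKAO, and Rpl6, Rpl7, Rpl8, Rpl10, Rpl30, Rpl31, Rpl34, Rplp2, Rps21 and Rps24, higher in GKAQ. The mitochondrial loci were Mrpl37 and Mrps17, higher in GKAO, and Mrpl16 and Mrps33, higher in GKAQ.

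Several ribosomal proteins have paralog copies that can take their place. Rpl22l1, the copy of Rpl22, had 2.93 to 4.19 RPM in GKAO controls and 0.493 to 3.14 RPM in GKAQ controls, on 1 to 11 reads in each of the 11 libraries, and was not called in any comparison. Rpl22 had 121 to 148 RPM in GKAO controls and 100 to 110 RPM in GKAQ controls, and was not called. Rpl36a had 30.4 to 48.1 RPM over the 11 libraries and its copy Rpl36al had 32.6 to 63.2 RPM, and neither was called. Rps27l, the p53-responsive copy of Rps27, had 3.76 to 18.7 RPM and was not called. Mrps18a, a mitochondrial paralog of Mrps18c, had 12.3 to 36.4 RPM and was not called. Rpl3, Rpl7 and Rps4x were not called either. Near-identical copies and processed pseudogenes are common in this family, and reads that fit several of them may have been split or lost in the counting. Rps19bp1, which the name rule took in, is a binding partner of Rps19 and not a ribosomal protein. It had 28.1 to 58.9 RPM and was not called.

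Ribosomal proteins whose symbols do not follow the family names were taken from a separate list. Of 5 further cytosolic symbols 4 were matched (among them Fau, Rpsa and Gnb2l1, the older symbol of Rack1), and of 7 further mitochondrial symbols 6. No gene of either list was called in G9a cKO, in cDKO or for their difference. Gnb2l1 had 67.2, 73.8 and 80.3 RPM in GKAO controls and 27.7, 42.9 and 40.4 RPM in GKAQ controls, and was lower in GKAQ (log2 difference −1.02, adjusted p = 1.77e-06 with limma). Fau was also lower there (−0.53, adjusted p = 0.00566). With their own spread neither was called (adjusted p = 0.0702 and 0.337).

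Genes for ribosome assembly are a separate list. Of 85 listed genes for cytosolic ribosome biogenesis 68 were matched and 7 were called (10.3%), 4 higher and 3 lower, against 6.34% of all loci and 15.8% of detected loci, with a median log2 fold change of −0.065 over the 60 detected, against 0.05 over all detected loci. Utp14a, of the small-subunit processome, had 44.0, 37.1 and 37.5 RPM in GKAQ controls and 86.0 and 78.8 RPM in cDKO. It rose by 1.06 (adjusted p = 4.69e-05 with limma; 0.0126 with its own spread) and was called in all 14 alternative settings. Ubtf, a transcription factor of RNA polymerase I, had 30.8, 35 and 38.9 RPM in GKAQ controls and 88.8 and 45.6 RPM in cDKO (log2 fold change 0.87, adjusted p = 0.00172 with limma; 0.212 with its own spread). Without cDKO replicate 1 its change was 0.39 and was not called (adjusted p = 0.694).

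Ubtf was also the 1 gene of the list called in G9a cKO, with 37.0, 52.9 and 36.3 RPM in controls and 71.8, 78.7 and 55.1 RPM in the mutant (0.71, adjusted p = 0.0162 with limma; 0.279 with its own spread). Riok2, a kinase of late small-subunit assembly, rose by 0.67 in cDKO (adjusted p = 0.00338 with limma; 0.0919 with its own spread), and Nol9, which acts in the processing of the spacer between ribosomal RNAs, fell by 0.60 (adjusted p = 0.0164 with limma; 0.258 with its own spread). Of 34 listed genes for mitochondrial ribosome biogenesis 17 were matched, and none was called in either mutant. Of 22 regulators of TOP mRNAs 16 were matched, and Mtor was the 1 called: it had 152, 158 and 137 RPM in GKAQ controls and 113 and 102 RPM in cDKO and fell by 0.47 (adjusted p = 0.0199 with limma; 0.271 with its own spread). Of the granulosa markers Inha and Fshr were called higher in cDKO, at 12 and 17 reads against 2, 10 and 2 for Inha and at 16 and 9 reads against 1, 6 and 5 for Fshr, while the summed level of the list in cDKO, 246 to 262 RPM, lay within the 244 to 289 RPM of its controls.

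H3K9me2 was measured in 10 kb windows by ChIP-seq in 2 libraries for each genotype, with 7048784 and 19128881 reads in controls, 1857144 and 1109191 for G9a cKO, and 1723142 and 1881848 for cDKO. Levels were taken relative to the mean of all windows of the same library, so they do not show how much of the mark there is. They are read levels that were not corrected for input or IgG, so background reads cannot be told apart from the mark. The 97 windows over cytosolic loci had levels of 0.989 and 0.94 in controls, 0.915 and 1.01 after loss of G9a, and 0.996 and 1.02 after loss of both enzymes. The controls lay within the range of G9a cKO, and both cDKO libraries lay slightly above the controls. In the 70 windows that hold a cytosolic start the controls had 0.99 and 0.92 and cDKO 0.96 and 1.01, so that there the groups overlapped. The 173 windows over mitochondrial loci had 0.999 and 1.02 in controls, 1.10 and 1.20 after loss of G9a, and 1.19 and 1.19 after loss of both. Here both mutants lay above both controls, as did the 52988 windows over all detected named loci, with 0.978 and 0.963 in controls, 1.06 and 1.09 after loss of G9a, and 1.16 and 1.14 after loss of both.

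In windows that hold the start of the locus, the cytosolic genes stood at a median percentile of 35 of all windows in controls and the mitochondrial genes at 32.1, against 33.4 for all detected named loci, and no member of either set was above the 90th percentile. With 2 libraries a group no test was made. The low depth of the mutant libraries, 4.12 to 6.98 reads a window on average against 26.2 and 71.4 in controls, limits what single windows can show.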

How the data were processed

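RNA-seq libraries were made from pooled oocytes, per the labels' protocols, and the authors deposited 1 table of log2 values per transcript locus and library. The scale is not given in the sources used here; from the values, each is the log2 of reads scaled to a total of 1000000, with 0 reads set to 0.9 read, and whole reads were recovered for every value (tolerance 0.02 read). The H3K9me2 table of 10 kb windows, which the authors deposited, holds log2 values of the same kind. Per the submitters' processing notes Trim Galore, HISAT2 2.1.0, Bowtie2, Bismark 0.19.0 and the build GRCm38 were used; roles, the counting method and strand use are not given there. Of the H3K9me2 values, 4 columns matched no sample and were not used. Bisulphite, input and IgG libraries were not analysed here.

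All 38540 loci of the 11 RNA libraries were fitted together with limma 3.58.1 in R 4.3.3 (one mean per group, trend and robust moderation, two-sided, Benjamini-Hochberg over all loci, adjusted p below 0.05). A planned count test for raw counts was not used, because the deposited values are log2 values. At 1458868 to 2399680 reads a library, 1 read is worth 0.417 to 0.685 RPM, so members under 10 RPM rest on few reads.

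The members and gene lists were chosen with earlier results of these data known. Per comparison and set, the called members named are up to 6 higher and 6 lower by absolute log2 fold change (3 each for the controls), plus paralogs, stalk proteins, Rps19bp1 and up to 4 called genes of each list; Rplp1, Rps27a, Rpl13a and Rpl37 in cDKO and Rplp2 and Rpl34 in the controls are also given to account for the calls; a few items counted in the sets are not reported here by name. The planned naming by level per exon length was not done, since exon lengths were not used here. The fit was also run on simulated reads in which all loci had the same spread setting. That run cannot check calls of genes whose own spread differs from the trend. Alternatives were centring on detected loci, detected loci only, log2(RPM + 1), no trend and no robust moderation, precision weights on recovered reads, only the groups compared, pooled controls, the title number as a term, and each library left out in turn. Detected loci only with no trend, and detected loci only with log2(RPM + 1), were added after seeing the data. RefSeq promoters (GRCm38.p6) were searched for motifs with Python 3.11.15. Figures were drawn with matplotlib 3.10.9.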

Additional observations from a re-analysis of the deposited data

Results flagged for a closer look

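For 5 members the change in cDKO against GKAQ controls differed from the change in G9a cKO against GKAO controls, by limma's test of that difference. For Rplp0 the difference was 1.18 on the log2 scale, from 1.32 in cDKO and 0.14 in G9a cKO. For Rps16 it was 1.97, from 1.68 and −0.29. For Rps27a it was 1.19, from 0.70 and −0.49. For Rpl37 it was 0.61, from 0.47 and −0.14. For Mrpl18 it was 0.59, from 0.53 and −0.06. Between the control groups Rplp0, Rps27a and Rpl37 were lower in GKAQ, by values of −1.22, −0.99 and −2.36 on the log2 scale. The GKAQ controls enter both that comparison and the difference, and the part of the control groups in the difference was not tested.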

How the results depend on the processing

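Counts below are members called, in the order cytosolic and mitochondrial; the counts with no change of setting were 2 and 1 in G9a cKO, then 11 and 4 in cDKO, then 4 and 1 for the difference between mutants, and 18 and 6 between controls. With log2(RPM + 1) they were 0 and 0, 3 and 2, 0 and 0, and 6 and 0. With no trend and no robust moderation they were 0 and 0, 3 and 1, 0 and 0, and 4 and 0. Over detected loci with no trend, G9a cKO had 0 cytosolic calls and cDKO 6, and the difference had 0 and 0. With pooled controls they were 6 and 5 in G9a cKO, and 5 cytosolic in cDKO. The title number, which GKAO controls and G9a cKO libraries share, gave 6 and 1 calls in G9a cKO when entered as a term. The mitochondrial difference had 0 calls after centring and 2 over detected loci, with or without log2(RPM + 1), and the mitochondrial count between controls was 13 in both of these. Leaving out each library in turn gave 0 to 4 and 1 to 1 in G9a cKO, then 4 to 13 and 2 to 4 in cDKO, then 1 to 11 and 0 to 5 for the difference, and 14 to 18 and 3 to 6 between controls. The 0 in G9a cKO came without GKAO control replicate 3, the 4 in cDKO without cDKO replicate 1, the 11 and 5 without GKAQ control replicate 1, and the mitochondrial 2 in cDKO without GKAQ control replicate 3. The 3 between controls came without GKAO control replicate 2. The mitochondrial 1 in G9a cKO was not always Mrps2, whose call was lost without G9a cKO replicate 3. The cytosolic median ran from −0.131 to 0.015 in G9a cKO and from 0.135 to 0.289 in cDKO, and the mitochondrial median from −0.239 to −0.061 and from 0.137 to 0.224. Centring gave a mitochondrial median of 0.062 in cDKO. Against pooled controls the oocyte markers Dppa3 and Zp2 changed sign in cDKO, to 0.11 and −0.2 on the log2 scale. In start windows the mean H3K9me2 level was 0.985 for cytosolic members in cDKO, and 0.968, 1.03 and 1.175 for mitochondrial members in controls, G9a cKO and cDKO. Unless a setting leaves out libraries or loci, the cause of these shifts was not tested. The share of all loci called in each setting is not given, so the counts cannot be read as a result about the members. Of single named genes, 214 values under an alternative lost their call and 525 did not change side. Single libraries were not paired, because the labels give no replicate numbers. The title numbers are shared unevenly (1 mutant and 2 controls, or 2 mutants and 1 control), in cDKO by a single pair, and their meaning is not given. The main fit left the title number out, and only the G9a cKO setting above entered it as a term.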
